A study of Mus musculus with 36 samples.

Results

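Lpl, which encodes lipoprotein lipase, was examined with 9 further genes in the brains of mice that lack the lysosomal protease tripeptidyl peptidase 1. The further genes serve in glial lipid handling, except Gpnmb and Lgals3, which were included as genes of lipid-laden phagocytes. The 10 genes were taken by name (Lpl, Apoe, Abca1, Abcg1, Ch25h, Plin2, Soat1, Fabp5, Gpnmb and Lgals3) from the 53274 genes shared by the 3 annotations used. Lpl was chosen by its measured values, because at 3 months the fold difference between Tpp1-/- and control mice was larger in cerebellum than elsewhere. The other 9 genes were chosen for their known roles with Lpl, with earlier results of these data known. The values of Lpl at 3 months, and every contrast that uses them, are therefore given as a description with no test.

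Loss of TPP1 causes late-infantile neuronal ceroid lipofuscinosis, a childhood neurodegenerative disease in which undegraded material builds up in lysosomes. RNA was sequenced from forebrain and midbrain (F/M) and from cerebellum (Cb) of Tpp1-/- mice, a gene-targeted line without the enzyme in any cell type, and of control siblings. Mice were 1, 2 or 3 months old, with 3 control and 3 Tpp1-/- samples of each region at each age, giving 36 libraries. Controls were wild type, except for control replicate 3 at 1 month, which was Tpp1+/- in both regions. At 1 month replicate 1 was female and replicates 2 and 3 male, at 2 months all mice were male, and at 3 months replicates 1 and 2 were male and replicate 3 female, in both genotypes. Values are reads on a gene scaled to a common library size (CPM), or CPM per kilobase of exon (RPKM) where genes are compared with one another. A gene was called when the edgeR quasi-likelihood test gave a Benjamini-Hochberg adjusted p below 0.1 over all genes tested and it changed by 1.5-fold or more. The test of a difference between effects had no minimum fold.

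Lipoprotein lipase splits triglycerides in lipoproteins into fatty acids that cells can take up. Inside a glial cell, fatty acid binding proteins carry the fatty acids and SOAT1 esterifies cholesterol, and the esters are kept in droplets coated by perilipin 2. Surplus cholesterol leaves through the transporters ABCA1 and ABCG1 onto particles that carry apolipoprotein E, the main apolipoprotein of brain. This export is under control of the oxysterol-sensing liver X receptors (LXR). Microglia that engulf myelin or dying cells are known to raise Lpl, Apoe, Gpnmb and Lgals3 together.

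Libraries held 10609896 to 29942380 reads on genes, with a median of 21049839. Tpp1 itself was lower in the libraries labelled Tpp1-/- in both regions at each age, with log2 fold changes between -2.12 and -1.31 and adjusted p of at most 0.000705 by edgeR's quasi-likelihood test. At 1 month Tpp1 read 46.6 CPM in F/M and 55.9 CPM in Cb of the Tpp1+/- control, below the 69.7 to 74.4 CPM and 87.8 to 89.5 CPM of the wild-type controls. Dissection matched its labels at 3 months, since 6 of 6 Purkinje cell markers and 6 of 6 granule cell markers were called higher in control Cb than in control F/M, and 8 of 8 forebrain neuron markers lower. A Cb library stood apart at 3 months: in Tpp1-/- replicate 1 the shortest genes exceeded the longest genes, in 5 classes of equal size by exonic length, by 0.84 in median log2 deviation from the mean of the other libraries of its group, against -0.47 and -0.36 in the other Tpp1-/- Cb libraries of that age. At 1 month Tpp1-/- replicate 1 of Cb had a difference of 0.50, and the 30 libraries outside these groups lay between -0.33 and 0.35. Fitted values at 3 months in Cb are therefore given with and without replicate 1 where a result rests on them, an alternative that for age contrasts, marker lists and correlations was chosen after seeing the data. Control replicate 3 of Cb at 3 months differed from its group too, though not by gene length (0.02). Its chi-square per degree of freedom against the other controls was 35.1 and 40.8, and theirs against each other was 2.18.

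RefSeq promoter sequences of build GRCm38.p6 matched 7 of the 10 genes. The 250 bases before the start are shown for Abca1, the cholesterol exporter and a well known LXR target, and for Gpnmb and Lgals3, the genes besides Lpl that rose at 3 months. They lie at chr4:53159896-53160145 on the minus strand for Abca1, chr6:49036268-49036517 on the plus strand for Gpnmb and chr14:47373610-47373859 on the plus strand for Lgals3, whose RefSeq start lies inside the longer annotated gene. All are written 5′ to 3′ along the gene's own strand, and capitals mark matches to the motifs searched.
Abca1: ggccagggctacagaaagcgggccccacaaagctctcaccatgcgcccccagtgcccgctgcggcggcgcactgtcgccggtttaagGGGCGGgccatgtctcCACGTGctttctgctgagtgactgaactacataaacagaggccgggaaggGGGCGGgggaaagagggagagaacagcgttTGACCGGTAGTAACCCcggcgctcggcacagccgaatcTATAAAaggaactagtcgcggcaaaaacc
Gpnmb: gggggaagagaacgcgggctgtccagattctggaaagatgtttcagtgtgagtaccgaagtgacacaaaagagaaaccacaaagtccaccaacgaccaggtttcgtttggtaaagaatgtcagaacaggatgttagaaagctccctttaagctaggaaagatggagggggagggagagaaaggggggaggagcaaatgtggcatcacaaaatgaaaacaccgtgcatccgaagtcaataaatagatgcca
Lgals3: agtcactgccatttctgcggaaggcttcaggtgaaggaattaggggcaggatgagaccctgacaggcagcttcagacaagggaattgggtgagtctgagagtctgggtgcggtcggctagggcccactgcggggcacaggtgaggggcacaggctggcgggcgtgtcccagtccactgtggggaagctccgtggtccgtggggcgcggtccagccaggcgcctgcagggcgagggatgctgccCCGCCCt
Both strands of 7 motifs were searched from 250 bases before to 50 bases after each start. They were the E-box CACGTG, the M-box core CATGTG, the AP-1 site TGANTCA, the ETS core GAGGAA, the GC box GGGCGG, the TATA box TATAAA and an LXR repeat, which is NGGTNA and NGGTCA with any 4 bases between. The Abca1 stretch held the LXR repeat 67 bases before the start, in letters that were loosened after its sequence had been read, and it also held an E-box, a TATA box and GC boxes. The LXR repeat occurred in 0.207% of 32851 promoters of this length. The Gpnmb stretch held none of the 7 motifs before its start, and an AP-1 site, present in 7.81% of promoters, began 8 bases after it. The Lgals3 stretch held a GC box, found in 35.7% of promoters and shown as its complement, 7 bases before the start. These matches are letters in a window and are not evidence of binding.

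Lpl lies at chr8:68880491-68907448 on the plus strand in mm10, and the other genes described at most length lie at chr6:49036546-49070929 (Gpnmb, plus), chr14:47367751-47386160 (Lgals3, plus) and chr4:53030787-53159895 (Abca1, minus). In control mice Lpl was the gene of this group that differed most between regions. At 1 month its level was 30.5, 28.9 and 26.6 CPM in F/M controls and 2.75, 2.52 and 2.05 CPM in Cb controls. At 2 months the F/M controls read 31.2, 36.3 and 31.8 CPM and the Cb controls 1.09, 2.35 and 2.2 CPM. The groups lay far apart at both ages. Lpl was 11.78-fold lower in Cb at 1 month (log2 fold change -3.56 ± 0.14 SE, adjusted p = 5.92e-12) and 17.15-fold lower at 2 months (-4.10 ± 0.17, adjusted p = 1.16e-13) by edgeR's quasi-likelihood test. At 3 months the F/M controls read 30.3, 32.3 and 31.2 CPM and the Cb controls 2.37, 2.52 and 1.5 CPM, a log2 difference of -3.87 ± 0.19 given as a description.

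Of the 9 members tested in each region comparison, 5 were called at 1 month, 7 at 2 months and 4 of the 9 other than Lpl at 3 months, against 36.9%, 39.3% and 37.7% of all genes. Groups did not overlap for 7 of 9 members at 1 month, 8 of 9 at 2 months and, without Lpl, 7 of 9 at 3 months, against 65.9%, 67.6% and 63.6% of all genes. The droplet coat gene Plin2 was higher in Cb at each age, by 2.12-fold, 1.99-fold and 1.98-fold (adjusted p = 7.68e-05, 1.06e-06 and 0.000604). Fabp5, a fatty acid carrier, was lower in Cb at each age, with log2 differences of -0.75, -1.18 and -0.59 (adjusted p = 0.000163, 1.11e-08 and 0.0045). Soat1, the cholesterol esterifying enzyme, was lower too, by log2 differences of -0.65, -0.45 and -0.64 (adjusted p = 6.84e-05, 3.96e-05 and 7.31e-05), with that at 2 months under the minimum fold.

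The exporters went the other way. Abcg1 was higher in Cb by 0.70, 0.80 and 0.35 on the log2 scale (adjusted p = 1.44e-06, 1.37e-09 and 0.00834), the last under the minimum fold. Abca1 was higher by 0.45, 0.90 and 0.29 (adjusted p = 0.053, 3.6e-07 and 0.0616), past the minimum fold at 2 months only. Apoe differed by -0.23, -0.01 and -0.10 and was not called.

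The phagocyte genes leaned towards Cb in controls. Lgals3, which encodes galectin-3, was called higher there at 2 months (log2 difference 0.80, adjusted p = 0.0142) and 3 months (1.59 ± 0.30, adjusted p = 0.000544) and had a value of 0.62 at 1 month (adjusted p = 0.137). Gpnmb, a lysosomal and cell surface glycoprotein of phagocytes, was called higher at 2 months (0.66, adjusted p = 0.0142), with values of 0.18 at 1 month (adjusted p = 0.579) and 0.50 at 3 months (adjusted p = 0.0538). In the same controls at 3 months all 15 of 15 microglial markers were called lower in Cb, with a median log2 difference of -1.62 and summed levels of 139 to 164 CPM in Cb against 422 to 449 CPM in F/M. In these bulk samples fewer cells of a type and less RNA per cell cannot be told apart. When libraries were scaled by their totals alone, the median of all genes in the 3-month region comparison shifted by 0.109 on the log2 scale.

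**Figure D1:**
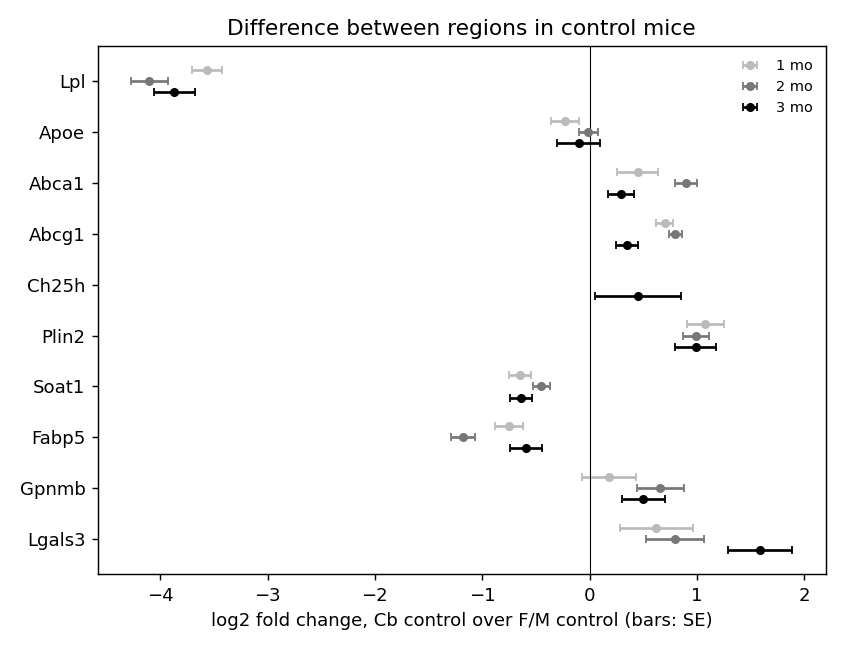
Log2 fold change of each of the 10 genes in control Cb over control F/M on the horizontal axis, with one shade of grey per age and bars of 1 SE. Lpl lies alone near -4, Plin2 lies near 1, and Fabp5 and Soat1 lie below 0 at all 3 ages.

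On a per-length scale, the control Cb at 3 months ran from Apoe at 446 ± 93.7 RPKM (SD, n = 3) down to Lpl at 0.203 ± 0.0524 RPKM. Between them, in falling order, stood Abcg1 (22.9 ± 3.08), Fabp5 (8.23 ± 0.60), Abca1 (7.25 ± 0.285), Soat1 (3.70 ± 0.339), Plin2 (3.32 ± 0.767), Lgals3 (1.01 ± 0.0846), Gpnmb (0.583 ± 0.0684) and Ch25h (0.363 ± 0.0538). The neighbours Soat1 and Plin2 lay within their SDs of each other. In control F/M the level of Lpl was 2.98 ± 0.0951 RPKM, above Plin2 and below Soat1. In Tpp1-/- Cb at 3 months Lpl stood at 0.911 ± 0.18 RPKM, above Ch25h at 0.604 ± 0.246 RPKM and still below Gpnmb at 1.72 ± 0.285 RPKM and Lgals3 at 3.68 ± 1.24 RPKM.

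Before 3 months Lpl showed little difference between genotypes. In F/M at 1 month Tpp1-/- mice read 31.7, 32.4 and 29.7 CPM, which overlapped the controls (log2 fold change 0.13 ± 0.11, adjusted p = 1). In Cb at 1 month Tpp1-/- mice read 2.85, 2.90 and 3.70 CPM, each above each control, but the log2 fold change of 0.38 ± 0.15 did not pass (adjusted p = 0.63). At 2 months the Tpp1-/- libraries read 34.4, 29.7 and 31.6 CPM in F/M (-0.05 ± 0.12, adjusted p = 0.878) and 2.66, 2 and 1.5 CPM in Cb (0.15 ± 0.24, adjusted p = 0.934). Both groups overlapped at that age, and the sign of each value turned when single libraries were left out.

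At 3 months the Cb values of Lpl separated. The control Cb libraries held 51, 55 and 33 reads on Lpl, or 2.37, 2.52 and 1.5 CPM, and the Tpp1-/- libraries 291, 187 and 194 reads, or 11.6, 7.92 and 9.11 CPM. Every Tpp1-/- library lay above every control. This was the difference by which Lpl was chosen. The fitted log2 fold change was 2.16 ± 0.19, or 4.48-fold, which ranked 35 among 17224 genes, and it was 2.00 without replicate 1. In F/M the controls read 30.3, 32.3 and 31.2 CPM and the Tpp1-/- mice 34.4, 41.5 and 33.3 CPM. Those groups did not overlap either, but the log2 fold change was 0.22 ± 0.15, or 1.16-fold. The Cb effect exceeded the F/M effect by 1.94 ± 0.24 on the log2 scale, or by 1.77 without Cb replicate 1. The size of this value follows from the choice. Lpl in Tpp1-/- Cb stayed below its level in Tpp1-/- F/M, by 1.93 on the log2 scale.

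**Figure D2:**
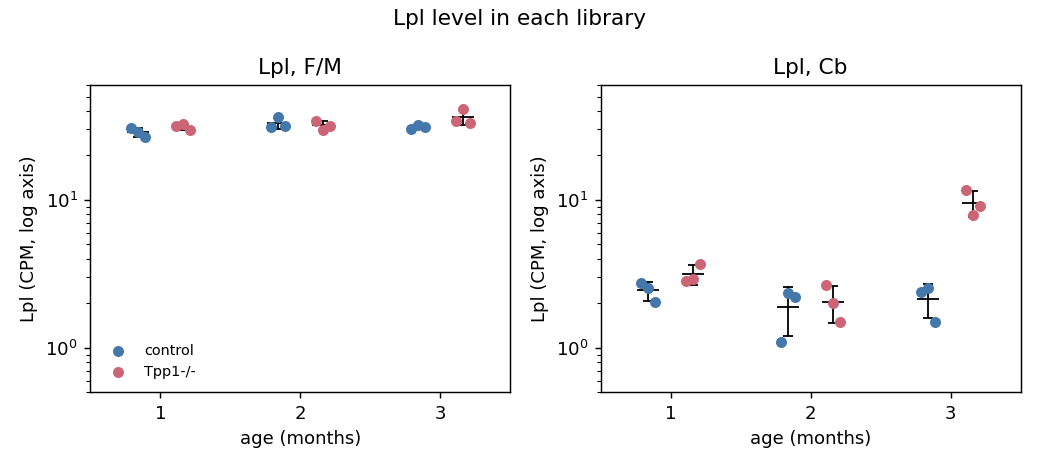
Level of Lpl in CPM on a log axis in each library against age in months, with one panel per region, control and Tpp1-/- mice marked apart and bars for mean and SD of 3 mice. The F/M values overlap or nearly touch at all ages, and the 3 Cb values of Tpp1-/- mice at 3 months, 7.92 to 11.6 CPM, stand above all other Cb values.

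Of the 9 genes other than Lpl, 2 were called higher in Tpp1-/- Cb at 3 months, against 0.673% of all genes called higher and 0.859% called in either direction, and both belong to phagocytes. Gpnmb read 3.53, 4.31 and 3.55 CPM in control Cb and 13.4, 9.99 and 10.3 CPM in Tpp1-/- Cb. The groups were widely separated, with a 2.96-fold rise (log2 fold change 1.56 ± 0.18, adjusted p = 0.000419), and 1.42 ± 0.17 without replicate 1 (adjusted p = 0.000603). Lgals3 read 1.81, 2.06 and 1.78 CPM in control Cb and 9.45, 5.12 and 5.91 CPM in Tpp1-/- Cb. Its 3.63-fold rise (1.86 ± 0.23, adjusted p = 0.000742) was 1.55 ± 0.17 without replicate 1, the highest of the group (adjusted p = 0.00034). Both calls held in each of the 15 alternative fits by edgeR, DESeq2 or limma.

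The same genes were called in F/M at 3 months, 2 of 9 called higher against 0.412% of all genes called higher and 0.464% called in either direction. Gpnmb read 2.29, 2.36 and 3.35 CPM in controls and 6.30, 7.14 and 5.20 CPM in Tpp1-/- mice, a 2.31-fold rise without overlap (1.21 ± 0.20, adjusted p = 0.0143). That call was lost without control replicate 1 (adjusted p = 0.114), control replicate 2 (0.128) or Tpp1-/- replicate 2 (0.108). Lgals3 was counted with 15, 8 and 12 reads in controls and 36, 29 and 35 reads in Tpp1-/- mice, or 0.764, 0.497 and 0.591 CPM against 1.75, 1.57 and 1.80 CPM. The groups did not overlap and the change was 2.72-fold (1.44 ± 0.31, adjusted p = 0.0867), but this call held in only 6 of 15 alternative fits. It was lost without any single library of the comparison, at adjusted p of 0.185 to 0.373.

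The other members did not pass a test of different effects in the regions at 3 months. The Cb effect exceeded the F/M effect by 0.35 ± 0.27 for Gpnmb and by 0.41 ± 0.40 for Lgals3 on the log2 scale (adjusted p = 1 for both). None of the 9 genes was called, against 0.00581% of all genes, and none reached an unadjusted p of 0.05 by edgeR's quasi-likelihood test, nor was any called by DESeq2 or limma-voom. Intervals of this width leave room for a difference.

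**Figure D3:**
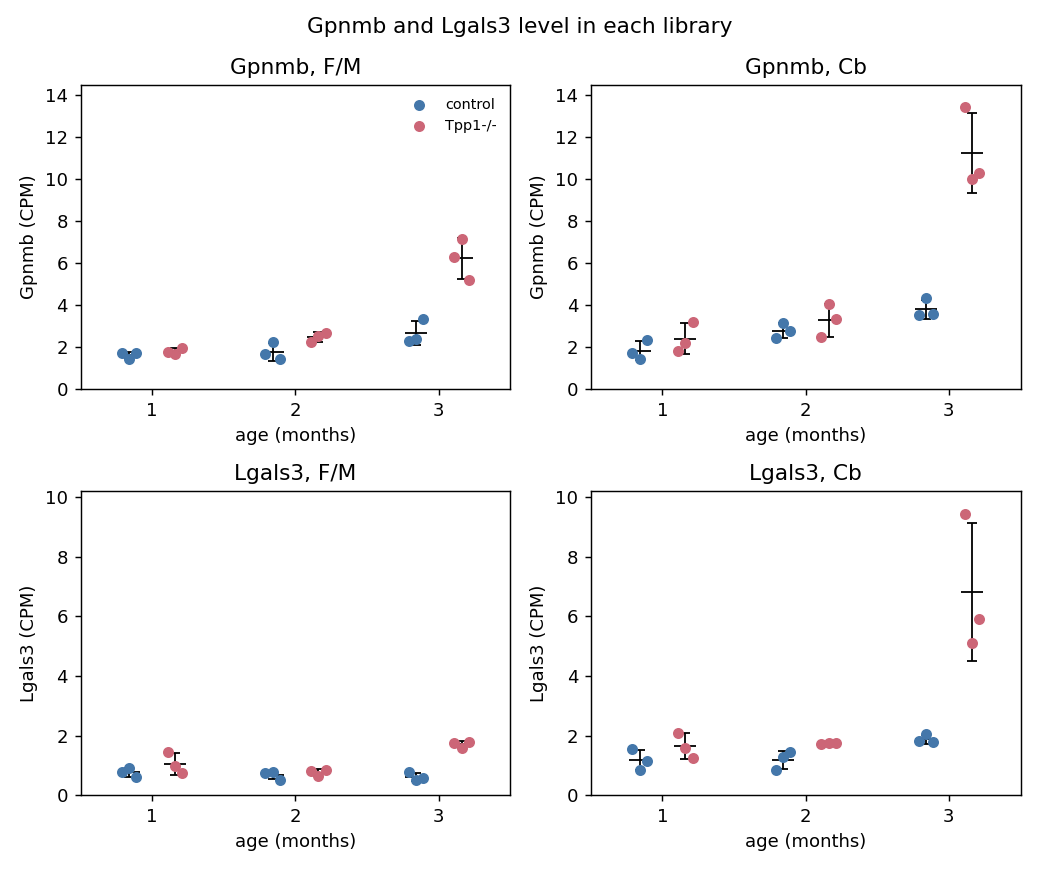
Levels of Gpnmb and Lgals3 in CPM on a linear axis in each library against age in months, by region and genotype, with mean and SD of 3 mice. In both regions the Tpp1-/- libraries lie above the controls at 3 months, and at 1 month the groups overlap.

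Neither gene was called between genotypes in either region before 3 months. At 1 month Gpnmb read 1.70, 1.44 and 2.32 CPM in control Cb and 1.80, 2.19 and 3.21 CPM in Tpp1-/- Cb (log2 fold change 0.38 ± 0.24, adjusted p = 0.669), and at 2 months 2.42, 3.16 and 2.75 CPM against 2.47, 4.04 and 3.31 CPM. Lgals3 read 1.54, 0.856 and 1.14 CPM against 2.10, 1.59 and 1.26 CPM at 1 month (0.49 ± 0.30, adjusted p = 0.657). At 2 months it read 0.863, 1.27 and 1.45 CPM in control Cb and 1.71, 1.77 and 1.75 CPM in Tpp1-/- Cb, groups that did not overlap (0.53 ± 0.23, adjusted p = 0.426). In F/M at 2 months Gpnmb was 1.65, 2.22 and 1.41 CPM in controls and 2.24, 2.52 and 2.68 CPM in Tpp1-/- mice, again without overlap and without passing the test (0.47 ± 0.24, adjusted p = 0.326). With 3 mice a group none of these earlier differences passed.

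A model of all 36 libraries compared the Tpp1-/- effects between ages. In Cb, 2 of the 9 genes were called for 3 against 2 months (1.44% of all genes), and 2 for 3 against 1 month (0.458%). The effect on Gpnmb in Cb at 3 months exceeded that at 2 months by 1.34 ± 0.29 (adjusted p = 0.00758) and that at 1 month by 1.20 ± 0.30 (adjusted p = 0.076). For Lgals3 the excess was 1.33 ± 0.36 (adjusted p = 0.0605) and 1.37 ± 0.35 (adjusted p = 0.0947). Several of these calls were lost in alternative fits. For 3 against 2 months Lgals3 missed with limma-voom (adjusted p = 0.137) and without Cb Tpp1-/- replicate 1 (1.01 ± 0.33, adjusted p = 0.266), while Gpnmb held in 4 of 4 fits. For 3 against 1 month Lgals3 missed with limma-voom (0.169) and without control replicate 3 of 1 month (0.178), and Gpnmb missed without that control (0.97 ± 0.32, adjusted p = 0.424). Without Cb Tpp1-/- replicate 1 Fabp5 was also called for 3 against 1 month (-0.63 ± 0.17, adjusted p = 0.0359). Those of Lpl, 2.02 ± 0.30 and 1.79 ± 0.28, or 1.85 and 1.61 without replicate 1, are a description. In F/M none of the 9 genes was called in these contrasts (0.393% and 0.153% of all genes), with 3 at an unadjusted p below 0.05 for 3 against 2 months and 2 for 3 against 1 month by edgeR, and limma-voom called none. The contrasts with 3 months share libraries, and each age was counted with its own annotation, so that age and processing cannot be told apart.

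Of the cholesterol export genes, Abca1 and Apoe had values past the adjusted p, but not past the minimum fold, in F/M at 2 months, and Abcg1 did not (-0.05 ± 0.06, adjusted p = 0.718). Abca1 read 49.9, 39.1 and 45.2 CPM in controls and 76.9, 58.7 and 60.5 CPM in Tpp1-/- mice, without overlap. The log2 fold change was 0.55 ± 0.11 (adjusted p = 0.0185), and its 1.47-fold difference lay just under the minimum fold. Apoe was also higher, at 761, 927 and 881 CPM in controls and 1150, 964 and 1180 CPM in Tpp1-/- mice (0.36 ± 0.09, 1.28-fold, adjusted p = 0.0617). At 2 months none of 9 members met both thresholds in F/M, where 0.737% of all genes did, and 2 passed the adjusted p alone, as did 3.17% of all genes. DESeq2 and limma-voom called none at both thresholds. Over 14 alternative fits the log2 fold change of Abca1 was 0.41 to 0.64 and met both thresholds in 3 of them, those without control replicate 1, Tpp1-/- replicate 2 or Tpp1-/- replicate 3. That of Apoe was 0.28 to 0.43 and met both in none. Without Tpp1-/- replicate 1 neither passed the adjusted p (0.151 for Abca1 and 0.278 for Apoe), and Apoe also missed it without control replicate 3, without Tpp1-/- replicate 3 and in a fit of the F/M libraries alone.

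Markers of several other cell types had higher values in the same Tpp1-/- F/M libraries. The 11 astrocyte markers all had positive values with a median of 0.31 and none called (summed levels 5100 to 6090 CPM in controls and 6410 to 7970 CPM in Tpp1-/- mice). Of 12 choroid plexus markers 9 were called higher, with a median of 0.91 and summed levels of 249 to 642 CPM against 551 to 754 CPM. All 8 endothelial and pericyte markers (median 0.21, sums 325 to 349 CPM against 360 to 463 CPM) and all 6 markers of oligodendrocyte precursors (median 0.32) had positive values, as did 4 of 6 tested markers of border macrophages and monocytes (median 0.12, sums 14.6 to 15.1 CPM against 17.2 to 17.8 CPM), with none called. Neuronal lists went the other way in these libraries. Forebrain neuron markers summed to 749 to 772 CPM in controls and 680 to 708 CPM in Tpp1-/- mice. General neuron markers summed to 6340 to 6430 CPM and 5310 to 6340 CPM. The part of all these cell types in the values of Abca1 and Apoe was not tested. In Cb at 2 months 7 of 12 choroid plexus markers were called higher too (median 0.69, sums 1010 to 1300 CPM against 1650 to 1830 CPM), where Apoe had a log2 fold change of 0.00 ± 0.09. Most of these choroid plexus markers are genes that the study itself named as raised in these mice. Their counts at 2 months are therefore no independent result.

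In Cb at 2 months Abca1 read 78.2, 86.6 and 86.2 CPM in controls and 105, 93 and 87 CPM in Tpp1-/- mice (0.19 ± 0.10, adjusted p = 0.602). Apoe was 897, 827 and 824 CPM against 758, 845 and 938 CPM. The Cb effect minus the F/M effect was -0.37 ± 0.15 for Abca1 (adjusted p = 0.30) and -0.36 ± 0.13 for Apoe (adjusted p = 0.223), so a difference between regions was not shown. No member was called in Cb at 2 months, against 2.05% of all genes, and Lgals3 alone was at an unadjusted p below 0.05. No member was called in the contrast of regions, against 2.97%, with Abca1 and Apoe at an unadjusted p below 0.05. DESeq2 and limma-voom called none in either.

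At 3 months Abca1 again did not overlap in F/M, at 63.7, 57.9 and 62.9 CPM in controls and 75.2, 75.6 and 74.3 CPM in Tpp1-/- mice, but its log2 fold change of 0.29 ± 0.12 did not pass (adjusted p = 0.774). In Cb it read 73.6, 73.3 and 78.6 CPM against 63.7, 92.1 and 92.4 CPM, the low value being that of replicate 1. The log2 fold change was 0.14 ± 0.12 with that library and 0.30 ± 0.07 without it (adjusted p = 0.0477, under the minimum fold). Apoe in Cb read 818, 858 and 1180 CPM in controls and 1650, 905 and 959 CPM in Tpp1-/- mice. Its log2 fold change of 0.30 ± 0.20 (adjusted p = 0.913) rested on replicate 1 and was -0.03 without it. Without control replicate 3 the value was 0.48. Abcg1 in Cb at 3 months did not differ detectably (0.00 ± 0.10).

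**Figure D4:**
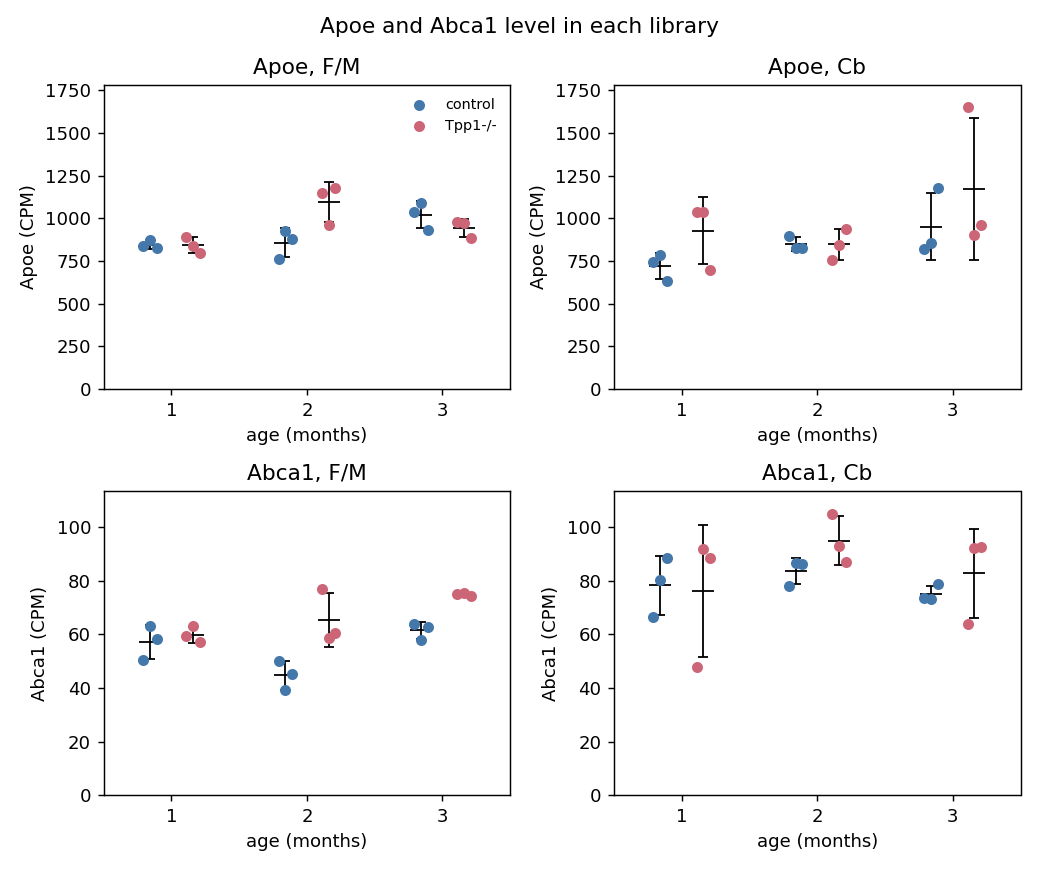
Levels of Apoe and Abca1 in CPM in each library against age in months, by region and genotype, with mean and SD of 3 mice. In F/M at 2 months the Tpp1-/- libraries lie above the controls for both genes, and in Cb at 3 months Tpp1-/- replicate 1 is the highest for Apoe and the lowest for Abca1.

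Ch25h, which makes the oxysterol 25-hydroxycholesterol, was scarce. It had 1 to 12 reads per library at 1 and 2 months and was not tested there. At 3 months control Cb held 12, 9 and 11 reads and Tpp1-/- Cb 30, 14 and 14 reads, and control F/M held 5, 7 and 8 reads and Tpp1-/- F/M 13, 11 and 9. Neither region's groups overlapped, but neither difference passed (0.74 ± 0.34 in Cb, adjusted p = 0.766, and 0.64 ± 0.40 in F/M, adjusted p = 1). The Cb value fell to 0.35 without replicate 1. Ch25h overlaps the RNA Gm26902 on the opposite strand, which had up to 38 reads, and counting used strand.

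The storage and carrier genes did not pass in any genotype comparison. In Cb at 3 months Plin2 read 10.7, 9.59 and 14.7 CPM in controls and 16.3, 11.2 and 10.8 CPM in Tpp1-/- mice (0.13 ± 0.18), and Fabp5 29.2, 27.3 and 31.6 CPM against 38.3, 23.4 and 24.8 CPM (-0.02 ± 0.15). Both were highest in Tpp1-/- replicate 1, and without it the log2 fold changes were -0.08 and -0.28. Without control replicate 3 they were 0.33 and 0.03. Soat1 read 54.7, 55.0 and 59.2 CPM in control F/M and 62.2, 64.1 and 61.0 CPM in Tpp1-/- F/M, groups that did not overlap at a log2 fold change of only 0.15 ± 0.10. In Cb it read 38.2, 38.0 and 32.4 CPM against 37.8, 45.4 and 40.5 CPM (0.19 ± 0.10, or 0.25 without replicate 1).

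Counting all members, groups did not overlap for 4 of 10 genes in Cb at 3 months (Lpl, Ch25h, Gpnmb and Lgals3), against 8.67% of all genes, and for 6 of 10 in F/M (those 4 with Abca1 and Soat1), against 24.1%. The choice of Lpl enters both counts. So does Ch25h, which passed the filter only at 3 months, when its reads were higher in Tpp1-/- than in control libraries of each region. The separation of Lpl and Ch25h is therefore a description. At 2 months the counts were 3 of 9 in F/M (Apoe, Abca1 and Gpnmb) against 18.3%, and 2 of 9 in Cb (Abca1 and Lgals3) against 18.1%. At 1 month they were 2 of 9 in F/M, with Fabp5 higher and Abcg1 lower, against 14.8%, and 1 of 9 in Cb (Lpl) against 7.97%. No member was called at 1 month, when 0.0112% of all genes were in either region. In F/M none was at an unadjusted p below 0.05 by edgeR, and in Cb 3 were, namely Apoe (0.37 ± 0.13), Fabp5 (0.34 ± 0.13) and Lpl, each at adjusted p = 0.63. In the same Cb libraries all 12 choroid plexus markers (median 0.68, sums 264 to 961 CPM in controls and 915 to 1370 CPM in Tpp1-/- mice) and all 5 blood markers (median 0.42, sums 140 to 242 CPM against 196 to 338 CPM) had positive values with none called, and their part in these values was not tested. DESeq2 and limma-voom called none at this age. In the contrast of regions at 1 month no gene of any kind was called, and none of the 9 members had an unadjusted p below 0.05.

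**Figure D5:**
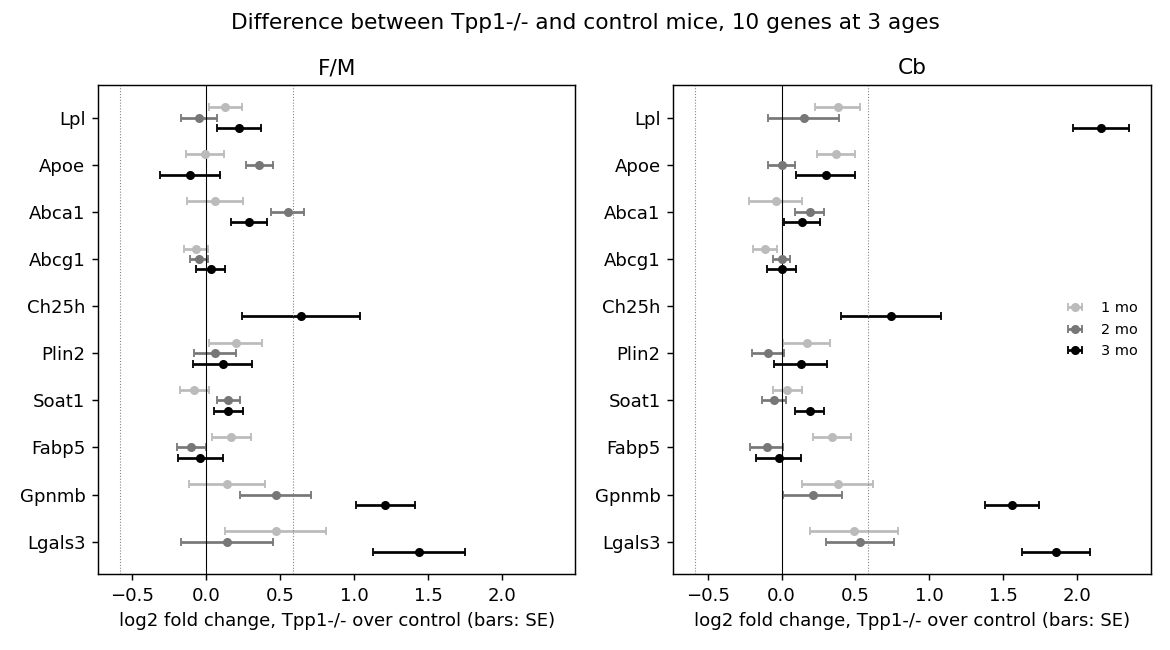
Log2 fold change of Tpp1-/- over control mice for each of the 10 genes on the horizontal axis, with one panel per region, one shade of grey per age, bars of 1 SE and dotted lines at the minimum fold of 1.5. At 3 months Lpl, Gpnmb and Lgals3 stand out above 1.5 in Cb, Gpnmb and Lgals3 stand out above 1 in F/M, and the other genes stay below 1 in both regions at the ages when they were tested.

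The 6 lists of lipid genes around the members, 116 genes in all, held few that moved. In Cb at 3 months the list of receptors and uptake genes had 1 of 15 tested genes called, Trem2, the lipid-sensing receptor of microglia. It rose from 3.70 ± 0.88 to 13 ± 3.84 CPM (SD, n = 3, log2 fold change 1.82 ± 0.21, adjusted p = 0.000381, and 1.55 without replicate 1), and the list median was -0.03. In the lysosomal lipid list, Hexa, which acts in ganglioside breakdown, was called higher (0.69 ± 0.12, adjusted p = 0.0138), and without replicate 1 its value was 0.52, under the minimum fold. The list of genes for lipase maturation, anchoring and inhibition had 1 of 11 called, Glipr1, with 2, 0 and 4 reads in controls and 13, 21 and 16 reads in Tpp1-/- Cb, near the limit of detection and with a median of 0.08. The place of Glipr1 in that list is doubtful, and without it none of the list was called. Without replicate 1, Pcsk5, a protease that can cut the lipase, was also called, lower (-0.63 ± 0.15, adjusted p = 0.069). None was called among 21 export and LXR genes (median 0.00), 21 droplet genes (-0.04) or 14 fatty acid binding and PPAR genes (-0.01). The median of all genes was -0.003. No gene of the 6 lists was called between genotypes in F/M or at 1 or 2 months. In the contrast of regions at 2 months 1 was called, Rxra, the partner of LXR, whose effect in Cb was lower than that in F/M by a log2 value of -0.41 ± 0.12 (adjusted p = 0.0986).

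Microglial markers moved with Lpl, Gpnmb and Lgals3 in Cb at 3 months. Of 15 markers 5 were called higher (Fcrls, C1qa, C1qb, C1qc and Aif1, with log2 fold changes of 1.32 to 1.96), all 15 had positive values, and the median was 0.56. Without replicate 1 these log2 fold changes were 1.02 to 1.75, Cx3cr1 was called too (0.63 ± 0.10, adjusted p = 0.00793), and the median was 0.46. The call of Aif1 was lost without control replicate 2 (adjusted p = 0.158). Their summed level was 139 to 164 CPM in control Cb and 264 to 392 CPM in Tpp1-/- Cb, where the highest value was that of replicate 1. In F/M 1 of 15 was called (Fcrls, 0.74, adjusted p = 0.0227), with a median of 0.10 and sums of 422 to 449 CPM against 525 to 567 CPM. That call was lost without control replicate 2 (adjusted p = 0.138), control replicate 3 (0.126) or Tpp1-/- replicate 2 (0.14). Per 100 CPM of these markers, Lpl was 1.38 ± 0.271 CPM in control Cb and 3.04 ± 0.113 CPM in Tpp1-/- Cb, and 7.12 ± 0.332 CPM against 6.69 ± 0.554 CPM in F/M. By the same measure Gpnmb went from 2.49 to 3.60 CPM in Cb and from 0.611 to 1.14 CPM in F/M, and Lgals3 from 1.23 to 2.14 CPM and from 0.141 to 0.315 CPM. Without replicate 1 the values in Tpp1-/- Cb were 3.09 CPM for Lpl, 3.69 CPM for Gpnmb and 2.0 CPM for Lgals3. Mean levels of C1qa, C1qb and C1qc went from 14.2, 16.1 and 12.8 CPM in control Cb to 55.3, 49.6 and 43.3 CPM in Tpp1-/- Cb. Much of the rise of the summed level rests on these genes, so the sum and the ratios do not measure microglial number. The part of microglial number in these results was not tested.

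Other markers bear on the Cb values of Lpl, which is abundant in F/M. In Cb at 3 months none of 8 forebrain neuron markers was called, 2 had positive values and the median was -0.37, with sums of 143 to 147 CPM in controls and 126 to 187 CPM in Tpp1-/- mice against 732 to 806 CPM in control F/M. At 2 months 2 of the 8, Drd2 (-2.80) and Bcl11b (-1.64), were called lower in Tpp1-/- Cb, and their part in the values of Lpl at that age was not tested. None of 6 tested markers of border macrophages and monocytes was called at 3 months (median 0.36, sums 9.82 to 10.6 CPM against 12 to 13.6 CPM in Cb). Blood markers at 3 months summed to 80.7 to 262 CPM in control Cb and 59.6 to 106 CPM in Tpp1-/- Cb. In F/M they summed to 69.3 to 77.7 CPM and 34.0 to 56.2 CPM, without overlap, and the part of blood was not tested. Adipocyte markers, of a cell rich in lipoprotein lipase, had summed counts of 0 to 17 reads in any library and were not tested. Of 11 astrocyte markers 1 was called in each region at 3 months, the reactive astrocyte gene Gfap (1.77 in Cb, adjusted p = 2.82e-06, or 1.62 without replicate 1, and 1.41 in F/M, adjusted p = 3.56e-05).

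The genes whose levels followed Lpl most closely over the 18 Cb libraries, after the control mean of each age was taken off, were the complement gene C4b (Pearson r 0.959), the lysosomal protease gene Ctss (0.958), Gfap (0.955), AU020206 (0.955) and Ly86 (0.947), out of 16712 genes. These values describe libraries that share the age and genotype steps and carry no test. Among the members Lgals3 ranked 25 (0.894) and Gpnmb 36 (0.882), Soat1 had 0.594, and the others lay between -0.114 and 0.249. Without Tpp1-/- replicate 1 of 3 months the same 5 genes had r of 0.921 to 0.945, Lgals3 0.833 and Gpnmb 0.82. In F/M, where Lpl varied little, the closest genes were Unc13d (0.811), Gm16294 (0.81), Phc2 (0.81), Cd53 (0.809) and Smg9 (0.806), with Lgals3 at 0.642 and Gpnmb at 0.54.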

How the data were processed

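RNA from F/M and Cb of 36 samples was poly(A)-selected, made into stranded libraries and read as single 50-base ends. The authors aligned reads with STAR 2.5.2b to mm10 and deposited raw read counts per gene from featureCounts. According to the file headers the ages were counted with GENCODE M21, M16 and M18 and with strand settings 1, 2 and 1 at 1, 2 and 3 months, while protein-coding genes took 95.9 to 97.8% of counts at each age.

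Counts were tested with edgeR 4.0.16 in R 4.3.3 (TMM scaling, filterByExpr, two-sided quasi-likelihood F test, Benjamini-Hochberg adjustment over all genes tested), using the 12 libraries of an age as 4 groups of 3. Thresholds were an adjusted p below 0.1 and a fold change of 1.5, as in the study. At 1, 2 and 3 months 17916, 17229 and 17224 genes were tested, with 9, 9 and 10 of the members, and Ch25h passed only at 3 months. Age contrasts used 18322 genes over all 36 libraries. The fits were tested on simulated counts. DESeq2 1.42.0 and limma 3.58.1 with voom, other scalings and filters, a sex covariate, replicate blocks and leaving out single libraries were alternatives. A count of 3 or fewer was taken as the limit of detection.

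The members and gene lists were chosen with earlier results of these data known. One result for the lysosomal lipid list is not reported here. All members, the other list genes that passed and the 5 genes most like Lpl per region are named. Whether F/M and Cb of the same number came from one mouse is not given in the sources used here, and the regions were fitted as separate groups. Deviations of same-numbered F/M and Cb libraries correlated at 0.095 to 0.198 at 1 month, at 0.124 or more in the 3 control pairs, and at -0.04 to 0.099 at 2 and 3 months. Each library is a separate mouse within its group, so p-values measure spread between mice. Replicates differed beyond counting noise. RPKM used the exon lengths in the count tables. Sequences came from RefSeq, GRCm38.p6.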

Additional observations from a re-analysis of the deposited data

Results flagged for a closer look

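Effects that differed between regions or ages were singled out here. The Tpp1-/- effect on Lpl in Cb at 3 months exceeded that in F/M by 1.94 on the log2 scale, with no test because Lpl was chosen by this difference. In Cb the effect at 3 months exceeded that at 2 months by 2.02 for Lpl (no test), by 1.34 for Gpnmb and by 1.33 for Lgals3, and it exceeded that at 1 month by 1.79 for Lpl (no test), by 1.20 for Gpnmb and by 1.37 for Lgals3. Without Cb Tpp1-/- replicate 1 of 3 months the excess over 2 months did not pass for Lgals3 (1.01, adjusted p = 0.266). The tests for Gpnmb and Lgals3 were contrasts in edgeR's quasi-likelihood model of all 36 libraries, in which age cannot be told apart from the processing set. Single values were not searched for outliers within groups, since each group had 3 mice.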

How the results depend on the processing

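Of the single-gene values recomputed under alternatives, 1102 kept their direction and their side of the threshold, 32 no longer passed, 11 newly passed and 10 reversed. Of the counts of called members 211 stayed within 1.5 times and 23 did not. In F/M at 3 months the count of 2 fell to 1 with limma-voom, with the replicate block, with the sex covariate, with agreement of 3 tools and at an adjusted p below 0.05, and to 0 to 1 when libraries were left out. In F/M at 2 months the count of 0 became 2 with no minimum fold and 0 to 1 when libraries were left out, and that of the contrast of regions at 2 months became 2 with no filter and 0 to 1 when libraries were left out. In Cb the count of 2 for 3 against 2 months was 1 with limma-voom and 1 without Cb Tpp1-/- replicate 1 of 3 months, a choice made after seeing the data, and for 3 against 1 month it was 1 with limma-voom and 0 without control replicate 3 of 1 month. Leaving out 1 library reversed Lpl in F/M at 2 months (range -0.12 to 0.02) and in Cb at 2 months (range -0.11 to 0.34), Lgals3 in F/M at 2 months (range -0.01 to 0.24) and the region difference of Gpnmb at 1 month (range -0.04 to 0.32). In Cb at 3 months, without Tpp1-/- replicate 1, Apoe became -0.03 and Plin2 -0.08, within ranges up to 0.48 and 0.33, and Fabp5 ranged from -0.28 to 0.11 around 0. The cause of these changes was not tested, apart from the fewer samples left.

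Lpl in Cb at 3 months ranged from 1.96 to 2.31 over 15 fits, its excess over F/M from 1.74 to 2.08 over 20 fits and its F/M value from 0.11 to 0.27. Same-numbered control and Tpp1-/- libraries correlated at -0.085 to 0.229 in their deviations, so the numbers were not taken as pairs. For same-numbered F/M and Cb libraries, a replicate block that treated each number as 1 mouse left the calls of members in the region comparisons at 5, 7 and 4 at 1, 2 and 3 months and none in the contrasts of effects. The replicate block left the other counts of called members in the genotype comparisons within 1.5 times. Groups of 2 in these fits borrowed the spread of the other groups. The counts were lowest for Ch25h, at 1 to 30 reads per library, which limits the precision of its values.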

Other observations

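In Cb the drop in Tpp1 itself was smaller at 3 months. Tpp1 read 52.7, 56.0 and 50.8 CPM in control Cb of that age and 21.5, 21.7 and 21.1 CPM in Tpp1-/- Cb, and its effect in Cb at 3 months exceeded that at 2 months by 0.75 ± 0.18 on the log2 scale (adjusted p = 0.0223 by the edgeR quasi-likelihood test over all libraries) and that at 1 month by 0.73 ± 0.18 (adjusted p = 0.0721). In F/M the excess was 0.79 ± 0.18 over 2 months (adjusted p = 0.0648) and 0.58 ± 0.18 over 1 month, which did not pass (adjusted p = 0.564). Levels of different ages come from tables counted with different annotations.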
